A study of Mus musculus with 12 samples.

Results

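The kynurenine pathway breaks down tryptophan, and in the liver it is the main route by which this amino acid leaves the free pool. The dioxygenases *Tdo2* and *Ido2* open the indole ring, *Afmid* releases kynurenine, and *Kmo*, *Kynu* and *Haao* carry kynurenine towards quinolinate, the precursor from which *Qprt* starts the synthesis of NAD. *Kyat3* and *Aadat* divert kynurenine to kynurenic acid by transamination, and *Acmsd* drains the intermediate that would otherwise become quinolinate. Kynurenine and kynurenic acid are known ligands of the aryl hydrocarbon receptor (AhR). The mRNA of these 10 enzymes, chosen by gene symbol out of the 24532 genes in the table, was followed through the livers of mice that differed in *Ahr* genotype and in diet. All 10 passed the filter on low counts.

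The livers came from male C57BL/6 mice in 4 groups of 3. *Ahr* HKO mice carried *Ahr fl/fl* and *Alb-Cre*, in which the albumin promoter drives Cre in hepatocytes, so that other liver cells keep the gene. WT mice were *Ahr fl/fl* littermates without Cre, so the floxed allele was shared by all groups. The ethanol groups (EtOH) received the Lieber-DeCarli liquid diet with 5% ethanol by volume, or 36% of calories, and the control groups (con) an isocaloric liquid diet. Feeding began at 10 to 12 weeks of age and lasted 5 weeks, and 3 livers per group were picked at random for sequencing. These data bear on how ethanol and the hepatocyte receptor each relate to the enzymes that make and remove kynurenine.

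Between 46306518 and 74336255 reads per liver were counted on genes. *Ahr* itself had 18.3 ± 1.79 CPM (counts scaled to library size, mean ± SD, n = 3) in WT-con and 56.7 ± 13.4 CPM in the livers labelled *Ahr* HKO on the control diet. This total runs against the label, but reads over the whole gene do not show whether exon 2, the part that Cre removes, was present, so *Ahr* HKO is used below as the label of these livers. *Cyp1a2*, a classical AhR target that was picked out after its values were seen, had 490 ± 114 CPM in WT-con and 154 ± 91.2 CPM in the livers labelled *Ahr* HKO on the control diet (log2 FC -1.67 ± 0.40, edgeR adjusted p = 0.0191). It rose with ethanol 2.22-fold in WT (edgeR adjusted p = 0.0142) and 4.28-fold in *Ahr* HKO (edgeR adjusted p = 0.00837). On the ethanol diet it was 1.66-fold lower in *Ahr* HKO than in WT (edgeR adjusted p = 0.0457). Hepatocyte markers were present in every liver, and the summed CPM of 6 of them ranged from 96995 to 141103. In whole liver, fewer cells of a type and less RNA per cell cannot be told apart.

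Levels were compared between enzymes as FPKM, which is scaled to gene length. *Tdo2*, which opens the tryptophan ring, had the highest mean in all 4 groups, from 477 ± 259 FPKM in *Ahr* HKO-con to 705 ± 131 FPKM in *Ahr* HKO-EtOH. *Haao*, the dioxygenase that forms the precursor of quinolinate, came next with 274 ± 33.0 to 379 ± 57.7 FPKM. *Qprt* and *Kmo* took the third and the fourth place in every group, with *Qprt* ahead in WT-con (108 ± 7.67 against 95.3 ± 4.08 FPKM) and *Kmo* ahead in the other groups. *Ido2*, the second ring-opening enzyme, had the lowest level but for *Acmsd* throughout (16.5 ± 1.94 to 29.3 ± 0.279 FPKM). *Acmsd* was lowest throughout, at 3.49 ± 0.427 FPKM in WT-EtOH and 5.12 ± 1.41 to 6.09 ± 0.868 FPKM in the other groups. The middle of the order changed most for *Aadat*, which had a mean of 66.5 ± 7.81 FPKM in WT-con, above *Kynu*, *Kyat3* and *Afmid*, and in WT-EtOH stood below all 3 of them at 24.1 ± 4.14 FPKM. *Acmsd* still had 370 to 1063 reads in every liver.

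**Figure D1:**
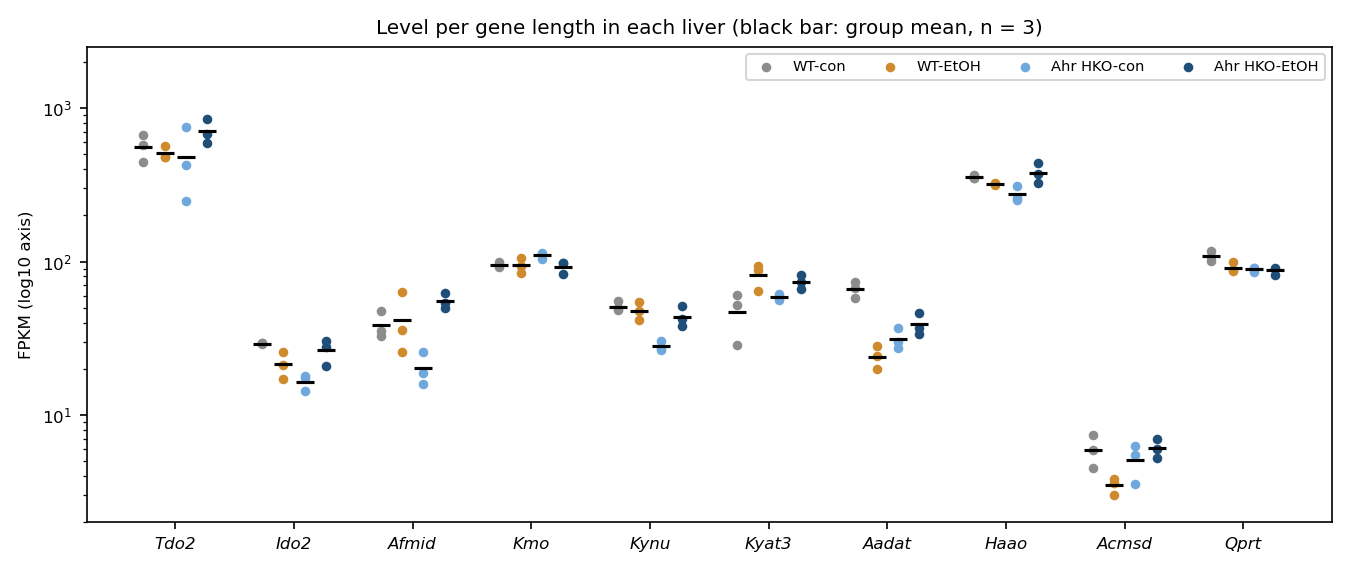
FPKM of the 10 enzymes (log10 y axis, pathway order on the x axis) in each of the 12 livers, with points coloured by group and black bars at the mean of 3 livers. *Tdo2* and *Haao* sit at the top in every group, *Acmsd* sits under 8 FPKM in all livers, and the *Aadat* points of WT-con lie above those of the other groups.

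Because AhR binds DNA at the core GCGTG, the promoters were searched for it on both strands, where it reads CACGC on the opposite strand. RefSeq windows of 300 bases (250 before to 50 after the start, GRCm38.p6) were given for 8 of the 10 enzymes, and none was given for *Ido2* or *Kynu*. The core occurred in 4 of these 8 windows, against 32.4% of the 32851 windows of all genes. The sites are shown because they are the stretches of these promoters that hold the core, which is in capitals in each 30-base run on the strand of the gene, at -194 for *Tdo2*, -224 and -146 for *Kyat3*, -137 for *Haao* and 6 for *Acmsd*, counted from the start.
*Tdo2* (chr3:81975905-81975934, minus strand): tagagggtttggCACGCcctgctagcaaac
*Kyat3*, distal (chr3:142700812-142700841, plus strand): ctgcttcgaatcCACGCagcggagatttaa
*Kyat3*, proximal (chr3:142700890-142700919, plus strand): ctcagccaaggcCACGCcctgtcccctagc
*Haao* (chr17:83846910-83846939, minus strand): atccctgctccgGCGTGtgtgcaggggcag
*Acmsd* (chr1:127729406-127729435, plus strand): aactctgattttCACGCtgatctctccata
The *Acmsd* run spans the start used for its window, and the other runs lie upstream of theirs. That start is the outer end of the annotated gene for *Tdo2* and *Acmsd*, lies 29 bases inside it for *Kyat3* and lies 2191 bases inside it for *Haao*, whose run is therefore within the gene. *Afmid*, *Kmo*, *Aadat* and *Qprt* held no such letters in their windows. The start lies 416 bases inside the annotated gene for *Afmid* and 281 bases inside it for *Aadat*. Both of these windows lie wholly within the gene, so the sequence before its outer end was not searched.

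In WT livers ethanol was followed by lower mRNA of *Aadat*, 3.11-fold, and of *Acmsd*, 1.92-fold. These 2 of the 10 enzymes passed the test (edgeR, adjusted p under 0.05 over 14038 genes), where 8.72% of all genes passed and 4.48% passed as lower. The median log2 FC was -0.32 over the enzymes and 0.01 over all tested genes. At an unadjusted p under 0.05 the count was 6, for which the share of all genes was not computed. DESeq2 called 5 enzymes and 2335 of the 14038 genes. Without any single liver the count lay between 1 and 3, with 360 to 1011 of all genes called. Of the 6 stellate cell markers 2 rose (summed 225 to 283 CPM in WT-con and 307 to 359 CPM in WT-EtOH). Of the 6 hepatocyte markers *Apoa1*, an apolipoprotein, fell 2.13-fold (edgeR adjusted p = 0.0346), with sums of 99820 to 106926 against 96995 to 129148 CPM. No marker was at 0, and the part of these cells in the enzyme values was not tested.

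In the livers labelled *Ahr* HKO ethanol was followed by higher mRNA of *Afmid*, 2.86-fold, *Kynu* and *Ido2*, both 1.68-fold, and *Kyat3*, 1.32-fold. These 4 of 10 stood against 31.2% of all genes called and 15% called as higher, so the share of enzymes called was not far from that of all genes called. The median log2 FC was 0.47 over the enzymes and -0.02 over all genes. The same comparison held markers of other cells: all 6 of 6 Kupffer cell markers fell, with a summed level of 257 to 753 CPM in *Ahr* HKO-con and 155 to 196 CPM in *Ahr* HKO-EtOH, and no marker was at 0. Of the leukocyte markers 2 of 6 fell (summed 13.4 to 27.0 against 6.24 to 8.98 CPM), of the endothelial markers 2 of 6 fell (243 to 266 against 173 to 195 CPM), of the stellate cell markers 2 of 6 rose (225 to 238 against 259 to 298 CPM) and of the 5 cholangiocyte markers tested 1 fell (summed over 6, 44.5 to 476 against 37.1 to 67.2 CPM). Of the 6 hepatocyte markers *Fgb*, a fibrinogen chain, fell 4.11-fold (edgeR adjusted p = 0.00164) and *Ttr*, the thyroid hormone carrier transthyretin, rose 1.76-fold (edgeR adjusted p = 0.0422), while the sums overlapped (99204 to 141103 against 110859 to 123613 CPM). The part of these cells in the enzyme values was not tested.

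On the control diet 5 enzymes were lower in the livers labelled *Ahr* HKO than in WT: *Aadat* 2.17-fold, *Afmid* 1.93-fold, *Kynu* 1.88-fold, *Ido2* 1.80-fold and *Qprt* 1.23-fold. Of all genes 29.7% were called and 14.4% were called as lower. The median log2 FC was -0.35 over the enzymes and -0.00 over all genes. The 6 hepatocyte markers gave overlapping sums (99820 to 106926 CPM in WT-con and 99204 to 141103 CPM in *Ahr* HKO-con), although *Fgb* was higher in *Ahr* HKO-con (log2 FC 1.36 ± 0.24, edgeR adjusted p = 0.00662). None of the 6 Kupffer cell markers passed by edgeR or DESeq2, 1 had an unadjusted edgeR p under 0.05, and they summed to 288 to 377 CPM in WT-con and 257 to 753 CPM in *Ahr* HKO-con. Of the 5 cholangiocyte markers tested *Epcam* was 4.85-fold higher in *Ahr* HKO-con (edgeR adjusted p = 0.00778), and the 6 listed summed to 40.3 to 132 against 44.5 to 476 CPM. Among the 6 leukocyte markers *S100a8*, of neutrophils, was 3.20-fold higher (edgeR adjusted p = 0.00355) and *Cd79a*, of B cells, 3.33-fold lower (edgeR adjusted p = 0.0172), with sums of 12.2 to 14.2 against 13.4 to 27.0 CPM. Of the 6 endothelial markers *Pecam1* was 1.56-fold higher (edgeR adjusted p = 0.0244), with sums of 234 to 292 against 243 to 266 CPM. No marker was at 0, and the part of these cells in the enzyme values was not tested. On the ethanol diet *Acmsd* was 2.04-fold higher in the livers labelled *Ahr* HKO and was the 1 enzyme called, against 1.06% of all genes called and 0.684% called as higher. There the log2 FC was above 0 for all 10 enzymes, with a median of 0.49 against -0.01 over all genes and with *Kmo*, *Kynu*, *Kyat3* and *Qprt* below 0 on log2(FPKM + 1) without quantile normalization. DESeq2 called 4 enzymes and 1511 of the 14038 genes on the ethanol diet. Without any single liver edgeR called 0 enzymes, with 10 to 193 of all genes called in those fits. The Kupffer cell markers summed to 255 to 675 CPM in WT-EtOH and 155 to 196 CPM in *Ahr* HKO-EtOH. All 6 had a log2 FC below 0, with 0 called by edgeR, 5 at an unadjusted edgeR p under 0.05 and 4 called by DESeq2. The share of all genes at that unadjusted p was not computed. All 6 leukocyte markers were also below 0, with 0 called by edgeR and 3 by DESeq2. Among the 6 hepatocyte markers edgeR called 0 and DESeq2 called 2. The part of these cells in the enzyme values on ethanol was not tested.

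Whether ethanol acted differently in the 2 genotypes was tested as an interaction over all 12 livers, given as the log2 FC of ethanol in *Ahr* HKO minus that in WT. It was positive and passed the test for 6 of 10 enzymes, *Aadat*, *Afmid*, *Ido2*, *Acmsd*, *Kynu* and *Haao*, against 22.3% of all genes called and 11.2% called as positive. The median was 0.95 over the enzymes and -0.03 over all genes. DESeq2 called 7 enzymes and 3977 of the 14038 genes. Fits without any single liver called 5 to 7 enzymes and 2267 to 3084 of all genes. Markers of other cells had negative interactions that passed as well: 4 of 6 Kupffer cell markers, with *Marco* at -4.62, *Adgre1* at -2.33, *Timd4* at -2.24 and *Cd5l* at -1.88 (edgeR adjusted p from 0.0102 to 0.0461), 2 of 6 leukocyte markers, *S100a8* at -3.01 and *Ptprc* at -1.52 (edgeR adjusted p = 0.00105 and 0.0225), 1 of 5 cholangiocyte markers, *Epcam* at -2.36 (edgeR adjusted p = 0.0252), and 1 of 6 endothelial markers, *Pecam1* at -0.93 (edgeR adjusted p = 0.0499). No stellate cell marker passed by edgeR or DESeq2, and 0 had an unadjusted edgeR p under 0.05. Of the hepatocyte markers *Fgb* passed at -1.25 and *Apoa1* at 0.93 (edgeR adjusted p = 0.0121 and 0.0389). The part of these cells in the interaction of the enzymes was not tested. The pairwise comparisons share groups with each other and with the interaction, so their values are given side by side for each enzyme.

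**Figure D2:**
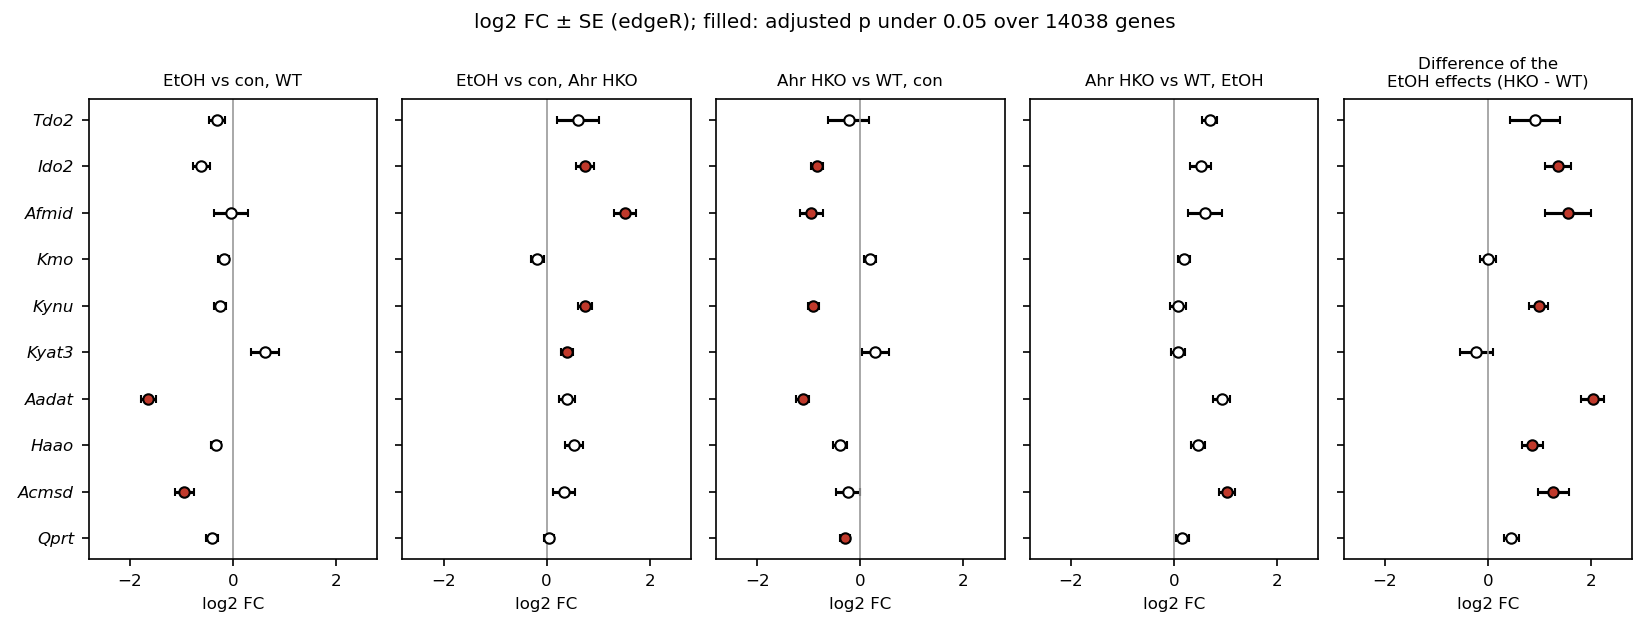
log2 FC from edgeR ± SE (derived from the F statistic) for the 10 enzymes in 5 comparisons. The x axis is on the log2 scale, the y axis has the enzymes in pathway order, and filled points have an adjusted p under 0.05 over 14038 genes. In WT the called points are *Aadat* at -1.64 and *Acmsd* at -0.94, and in the panel of the difference between the genotypes the 6 called points lie between 0.86 and 2.04.

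The pathway opens with *Tdo2*, the dioxygenase that carries most tryptophan oxidation in hepatocytes (chr3:81958412-81975728, GRCm38). Its CPM was 1142, 780 and 991 in WT-con, 782, 819 and 747 in WT-EtOH, 726, 401 and 1361 in *Ahr* HKO-con and 1047, 1491 and 1245 in *Ahr* HKO-EtOH. *Ahr* HKO-con was the most scattered group, and its range held all other livers except the one at 1491 CPM, while on ethanol all 3 livers labelled *Ahr* HKO lay above all 3 of WT. That separation on ethanol had a log2 FC of 0.69 ± 0.15 and did not pass the test (edgeR adjusted p = 0.0787), although DESeq2 called it (adjusted p = 0.000996). The ethanol effect was -0.31 ± 0.16 in WT (edgeR adjusted p = 0.261) and 0.60 ± 0.41 in *Ahr* HKO (edgeR adjusted p = 0.290). Without liver 3 of *Ahr* HKO-con, the one at 1361 CPM, ethanol in *Ahr* HKO gave 1.16 with an edgeR adjusted p of 0.0306, and the interaction gave 1.47 with an adjusted p of 0.0141. No other fit without 1 liver called either. The 6 fits of ethanol in *Ahr* HKO ranged from 0.27 to 1.16 (edgeR adjusted p up to 0.533). The 12 fits of the interaction ranged from 0.58 to 1.47 (edgeR adjusted p up to 0.317).

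*Ido2* encodes the other ring-opening dioxygenase expressed here (chr8:24531892-24576414). It had 93.8, 94.8 and 91.8 CPM in WT-con, 77.5, 56.5 and 49.4 CPM in WT-EtOH, 45.1, 53.2 and 57.8 CPM in *Ahr* HKO-con and 99.9, 68.2 and 94.5 CPM in *Ahr* HKO-EtOH. WT-con stood above both WT-EtOH and *Ahr* HKO-con with no overlap, and in *Ahr* HKO the ethanol livers stood above the control livers. *Ido2* was lower in *Ahr* HKO than in WT on the control diet (log2 FC -0.85 ± 0.11, edgeR adjusted p = 0.00255). It rose with ethanol in *Ahr* HKO (0.75 ± 0.17, edgeR adjusted p = 0.0167), a call lost without liver 1 of *Ahr* HKO-con or liver 3 of *Ahr* HKO-EtOH. Ethanol in WT gave -0.61 ± 0.16 (edgeR adjusted p = 0.0614), which passed in the fit without liver 1 of WT-EtOH (adjusted p = 0.0119) and with DESeq2. The ethanol effects differed between the genotypes by 1.36 ± 0.25 (edgeR adjusted p = 0.00420), and this call was kept without any single liver. Its neighbour on the chromosome, *Ido1*, a dioxygenase that interferon can induce, had 0 reads in each of the 12 livers, which allows at most 0.0404 to 0.0648 CPM per liver by counting error alone.

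*Afmid*, the arylformamidase that turns N-formylkynurenine into kynurenine, lies on chr11:117825503-117839908. Its CPM was 117, 82.5 and 87.1 in WT-con, 148, 74 and 57.4 in WT-EtOH, 38.9, 43.4 and 66.1 in *Ahr* HKO-con and 158, 136 and 131 in *Ahr* HKO-EtOH. The 3 control livers labelled *Ahr* HKO were below all of WT-con, and the 3 ethanol livers labelled *Ahr* HKO were above all control livers of either genotype. WT-EtOH was the most scattered group, and its liver 1 reached the range of *Ahr* HKO-EtOH. *Afmid* rose with ethanol in *Ahr* HKO by 1.52 ± 0.21 (log2 FC, edgeR adjusted p = 0.00381), and this call was kept without any single liver. In WT ethanol gave -0.04 ± 0.34 (edgeR adjusted p = 0.962). The genotypes differed on the control diet by -0.95 ± 0.23 (edgeR adjusted p = 0.0195), a call that was kept in 3 of 6 fits without 1 liver and lost without liver 1 of WT-con or liver 1 or 2 of *Ahr* HKO-con. The interaction was 1.55 ± 0.44 (edgeR adjusted p = 0.0289) and was called in 7 of 12 fits without 1 liver.

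The annotation lets *Afmid* overlap *Tk1*, the thymidine kinase of dividing cells, which runs the other way from chr11:117815519-117826087. The strand setting of the counting was not given in the sources used here, so reads of the overlap could be shared. *Tk1* had 27.2, 17.4 and 20.2 CPM in WT-con, 13.5, 12.4 and 12 CPM in WT-EtOH, 4.46, 3.70 and 5.4 CPM in *Ahr* HKO-con and 27.3, 35.8 and 33.1 CPM in *Ahr* HKO-EtOH. Its lowest group was thus the same as that of *Afmid*, and all its livers had fewer CPM than *Afmid* in the same liver. *Tk1* rose with ethanol in *Ahr* HKO (log2 FC 2.83 ± 0.18, edgeR adjusted p = 0.000849) and fell with ethanol in WT (-0.78 ± 0.17, edgeR adjusted p = 0.0346). The part of *Tk1* reads in the *Afmid* values was not tested.

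**Figure D3:**
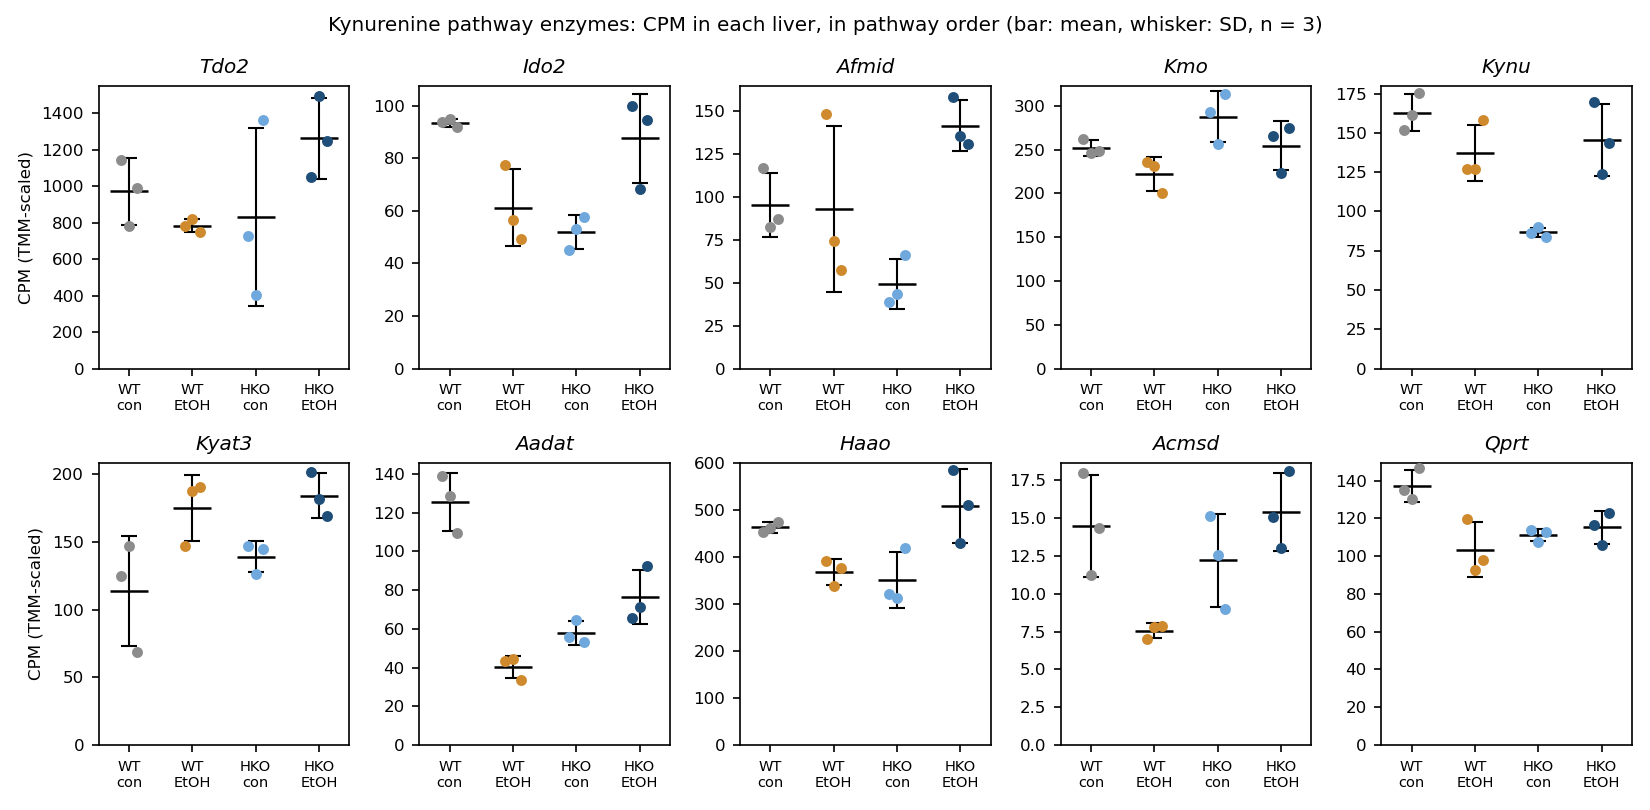
CPM (TMM-scaled, linear y axes from 0) of each enzyme in each liver, one panel per enzyme in pathway order, with the 4 groups on the x axis, bars at the mean and whiskers for the SD of 3 livers. The *Aadat* panel falls from 109 to 139 CPM in WT-con to 33.6 to 44.2 CPM in WT-EtOH, and the *Kynu* panel has its lowest group, 83.7 to 89.8 CPM, in *Ahr* HKO-con.

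*Kmo*, the mitochondrial monooxygenase that makes 3-hydroxykynurenine (chr1:175632193-175660853), varied least among the enzymes. It had 263, 246 and 248 CPM in WT-con, 236, 232 and 200 CPM in WT-EtOH, 293, 257 and 314 CPM in *Ahr* HKO-con and 266, 223 and 275 CPM in *Ahr* HKO-EtOH. Group means spanned 0.37 on the log2 scale, and neighbouring groups overlapped except WT-con and WT-EtOH. It passed the edgeR test in none of the 5 comparisons, with log2 FC of -0.18 ± 0.10 for ethanol in WT, -0.18 ± 0.13 for ethanol in *Ahr* HKO and 0.19 ± 0.11 for genotype on the control diet, and adjusted p from 0.242 to 0.99 over the 5. No edgeR p was under 0.05 before adjustment, DESeq2 called none, and limma on quantile-normalized FPKM called ethanol in *Ahr* HKO (adjusted p = 0.0183) and the genotypes on the control diet (adjusted p = 0.0223).

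*Kynu* encodes kynureninase, which cleaves kynurenine and 3-hydroxykynurenine with vitamin B6 as cofactor (chr2:43555258-43683048). Its CPM was 152, 161 and 175 in WT-con, 127, 127 and 158 in WT-EtOH, 86.4, 89.8 and 83.7 in *Ahr* HKO-con and 170, 124 and 143 in *Ahr* HKO-EtOH. *Ahr* HKO-con lay below all other livers, and the other groups overlapped. *Kynu* was lower in *Ahr* HKO than in WT on the control diet (log2 FC -0.91 ± 0.10, edgeR adjusted p = 0.00144) and rose with ethanol in *Ahr* HKO (0.75 ± 0.13, edgeR adjusted p = 0.00807). In WT ethanol gave -0.24 ± 0.12 (edgeR adjusted p = 0.251), and the genotypes on ethanol differed by 0.08 ± 0.15 (edgeR adjusted p = 0.792). The interaction was 0.99 ± 0.18 (edgeR adjusted p = 0.00404). All 3 of its calls were kept without any single liver.

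The side branch to kynurenic acid is held by aminotransferases, of which *Aadat* showed the widest range of group means of all 10 enzymes, 1.64 on the log2 scale. *Aadat* encodes kynurenine aminotransferase II, which also acts on the lysine product 2-aminoadipate (chr8:60505843-60545677). It had 139, 129 and 109 CPM in WT-con, 43.1, 44.2 and 33.6 CPM in WT-EtOH, 55.6, 64.7 and 53.3 CPM in *Ahr* HKO-con and 65.7, 71.2 and 92.4 CPM in *Ahr* HKO-EtOH. The 4 groups did not overlap, in the order WT-con, *Ahr* HKO-EtOH, *Ahr* HKO-con, WT-EtOH. It fell with ethanol in WT (log2 FC -1.64 ± 0.14, edgeR adjusted p = 0.00201), and it was lower in *Ahr* HKO on the control diet (-1.12 ± 0.13, edgeR adjusted p = 0.00171). In *Ahr* HKO ethanol gave 0.40 ± 0.15 (edgeR adjusted p = 0.0864), and the genotypes on ethanol gave 0.92 ± 0.17 (edgeR adjusted p = 0.0589), which passed in DESeq2 and in the single fit of 12 livers. The ethanol effects differed by 2.04 ± 0.22 (edgeR adjusted p = 0.000322). Its calls for ethanol in WT, for genotype on the control diet and for the interaction were kept without any single liver.

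*Kyat3*, kynurenine aminotransferase III, took another course (chr3:142701019-142744911). Its CPM was 125, 147 and 68.5 in WT-con, 147, 187 and 191 in WT-EtOH, 147, 126 and 145 in *Ahr* HKO-con and 202, 181 and 169 in *Ahr* HKO-EtOH. Control and ethanol livers overlapped in WT and were apart in *Ahr* HKO. It rose with ethanol in *Ahr* HKO (log2 FC 0.40 ± 0.12, edgeR adjusted p = 0.0385), a call lost in each of the 6 fits without 1 liver (adjusted p from 0.0584 to 0.102). In WT the larger FC of 0.62 ± 0.27 did not pass (edgeR adjusted p = 0.191), and the ethanol effects were not shown to differ between the genotypes (-0.22 ± 0.32, edgeR adjusted p = 0.660). *Kyat1*, another kynurenine aminotransferase outside the 10, had 120 ± 10.4 CPM in WT-con, 111 ± 30.9 in WT-EtOH, 105 ± 26.4 in *Ahr* HKO-con and 171 ± 12.7 in *Ahr* HKO-EtOH. It rose with ethanol in *Ahr* HKO (0.71 ± 0.19, edgeR adjusted p = 0.0282). *Got2*, the mitochondrial aspartate aminotransferase that can also transaminate kynurenine, lay between 418 and 564 CPM in all livers and had edgeR adjusted p from 0.494 to 0.892 in the 5 comparisons.

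*Haao* converts 3-hydroxyanthranilate to the semialdehyde from which quinolinate forms (chr17:83831348-83848981). It had 453, 461 and 475 CPM in WT-con, 391, 338 and 376 CPM in WT-EtOH, 321, 314 and 420 CPM in *Ahr* HKO-con and 586, 430 and 510 CPM in *Ahr* HKO-EtOH. In each of the pairwise comparisons the 3 livers of one group lay apart from those of the other, and none of these pairs passed the test (edgeR adjusted p from 0.0516 to 0.134). DESeq2 called all 4 pairs (adjusted p from 0.00828 to 0.0317), and ethanol in *Ahr* HKO and genotype on the control diet each passed in 4 of 8 alternatives. The log2 FC of ethanol was -0.33 ± 0.10 in WT and 0.53 ± 0.17 in *Ahr* HKO. Their difference passed, at 0.86 ± 0.20 (edgeR adjusted p = 0.0122), and stayed called without any single liver. Without liver 3 of *Ahr* HKO-con, the highest of its group, ethanol in *Ahr* HKO passed (edgeR adjusted p = 0.0263), and so did the genotypes on the control diet (adjusted p = 0.0140). A pseudogene, *Gm19260*, overlaps *Haao* in the annotation.

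The semialdehyde made by *Haao* stands at a fork, where *Acmsd*, a decarboxylase, leads it towards oxidation and its spontaneous closure gives quinolinate, the substrate of *Qprt*. *Acmsd* (chr1:127729413-127767564) had 18, 11.2 and 14.3 CPM in WT-con, 6.99, 7.81 and 7.86 CPM in WT-EtOH, 15.1, 12.6 and 8.99 CPM in *Ahr* HKO-con and 15.1, 13.1 and 18.1 CPM in *Ahr* HKO-EtOH. WT-EtOH lay below every other liver, and the other 3 groups overlapped. It fell with ethanol in WT (log2 FC -0.94 ± 0.18, edgeR adjusted p = 0.0227), and the call was kept in 1 of 6 fits without 1 liver, that without liver 2 of WT-con (range of adjusted p 0.0263 to 0.0732). On ethanol it was higher in *Ahr* HKO than in WT (1.03 ± 0.15, edgeR adjusted p = 0.0379), a call lost in all 6 such fits (0.0541 to 0.130). The interaction was 1.27 ± 0.30 (edgeR adjusted p = 0.0119) and was called in all 12 fits without 1 liver. The lncRNAs *Gm35993* and *2900009J06Rik* overlap *Acmsd* in the annotation, and reads could be shared with them.

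*Qprt* forms nicotinate mononucleotide from quinolinate and so joins the pathway to NAD (chr7:127107770-127122029). Its CPM was 135, 130 and 147 in WT-con, 120, 92.5 and 98.1 in WT-EtOH, 114, 108 and 113 in *Ahr* HKO-con and 117, 106 and 123 in *Ahr* HKO-EtOH. WT-con lay above all other livers, and the other groups overlapped. On the control diet it was lower in *Ahr* HKO (log2 FC -0.30 ± 0.09, edgeR adjusted p = 0.0472), which was lost in each of the 6 fits without 1 liver (adjusted p from 0.0719 to 0.151). Ethanol gave -0.41 ± 0.12 in WT (edgeR adjusted p = 0.0821) and 0.05 ± 0.10 in *Ahr* HKO (edgeR adjusted p = 0.736), and their difference of 0.46 ± 0.15 did not pass (edgeR adjusted p = 0.0522). DESeq2 called that difference.

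The balance at the ends of the pathway was described by ratios of FPKM within a liver, with no test. *Qprt* to *Acmsd* was 14.5, 22.3 and 19.7 in WT-con, 33.0, 22.8 and 24.0 in WT-EtOH, 14.5, 16.5 and 24.1 in *Ahr* HKO-con and 14.9, 15.6 and 13.1 in *Ahr* HKO-EtOH. All 3 WT-EtOH livers stood above the WT-con and *Ahr* HKO-EtOH livers, and they overlapped with *Ahr* HKO-con. *Tdo2* to *Ido2*, the 2 ring-opening dioxygenases, was 19.2 ± 3.70 in WT-con, 24.4 ± 5.08 in WT-EtOH, 29.0 ± 14.8 in *Ahr* HKO-con and 28.0 ± 11 in *Ahr* HKO-EtOH, and all 4 groups overlapped. *Tdo2* mRNA was thus at least 13.9 times that of *Ido2* per gene length in every liver.

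**Figure D4:**
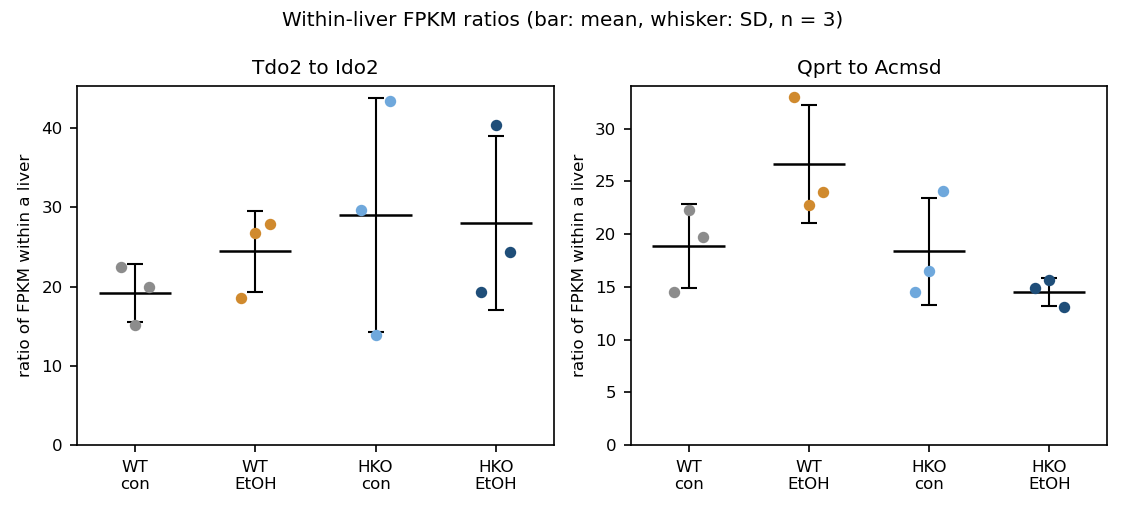
Ratio of FPKM of *Tdo2* to *Ido2* (left) and of *Qprt* to *Acmsd* (right) in each liver, with linear y axes from 0, the 4 groups on the x axes, bars at the mean and whiskers for the SD of 3 livers. The *Qprt* to *Acmsd* ratio is 22.8 to 33.0 in WT-EtOH and 13.1 to 15.6 in *Ahr* HKO-EtOH, and the *Tdo2* to *Ido2* ratio overlaps between all groups.

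Other enzymes that degrade tryptophan or its kynurenine products were read from a list of 12, of which 10 were tested. In WT none was called with ethanol by edgeR, DESeq2 or limma, against 8.72% of all genes called by edgeR, and 0 genes had an unadjusted edgeR p under 0.05. The log2 FC was below 0 for 8 of the 10, with a median of -0.12 against 0.01 over all genes. In *Ahr* HKO 4 rose with ethanol, *Gcdh*, *Aldh8a1*, *Kyat1* and *Hadh*, and none fell, against 31.2% of all genes called and 15% called as higher. *Gcdh*, the glutaryl-CoA dehydrogenase at the end of the oxidative route, had 385 ± 50.8 CPM in *Ahr* HKO-con and 584 ± 30.8 CPM in *Ahr* HKO-EtOH (log2 FC 0.60 ± 0.13, edgeR adjusted p = 0.0152). *Aldh8a1* oxidises the semialdehyde that *Acmsd* produces, and it had 340, 307 and 305 CPM in WT-con, 301, 263 and 303 in WT-EtOH, 157, 189 and 210 in *Ahr* HKO-con and 302, 251 and 262 in *Ahr* HKO-EtOH. It was lowest in *Ahr* HKO-con with no overlap, at -0.77 ± 0.13 against WT on the control diet (edgeR adjusted p = 0.00618), and the ethanol effects differed by 0.69 ± 0.18 (edgeR adjusted p = 0.0186). *Acmsd* and the enzyme that follows it thus had different lowest groups, WT-EtOH and *Ahr* HKO-con.

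Beyond *Qprt*, 15 genes of NAD synthesis and use were tested. With ethanol in WT 2 fell and none rose, against 8.72% of all genes called and 4.48% called as lower. *Nadsyn1*, the NAD synthetase that completes the route opened by *Qprt*, had 26.7 ± 0.956 CPM in WT-con, 15.9 ± 0.684 in WT-EtOH, 15 ± 1.13 in *Ahr* HKO-con and 18.2 ± 1.78 in *Ahr* HKO-EtOH. Its log2 FC was -0.75 ± 0.09 for ethanol in WT (edgeR adjusted p = 0.00512) and -0.84 ± 0.09 between the genotypes without ethanol (edgeR adjusted p = 0.00151), and the interaction was 1.03 ± 0.13 (edgeR adjusted p = 0.000801). *Parp1*, which consumes NAD, fell less with ethanol in WT (-0.32 ± 0.08, edgeR adjusted p = 0.0495). In *Ahr* HKO 6 genes of the list rose with ethanol and 2 fell, against 31.2% of all genes called and 15% called as higher. *Sirt3*, a mitochondrial deacetylase that uses NAD, rose (0.78 ± 0.11, edgeR adjusted p = 0.00358), and so did *Nadk2*, the mitochondrial NAD kinase (0.65 ± 0.10, edgeR adjusted p = 0.00450). *Naprt*, which makes the same mononucleotide as *Qprt* but from nicotinic acid, rose (0.70 ± 0.11, edgeR adjusted p = 0.00587), and *Cd38*, an enzyme that degrades NAD, fell (-0.78 ± 0.13, edgeR adjusted p = 0.00704). On the control diet *Sirt3* (-0.86 ± 0.10) and *Nadk2* (-0.83 ± 0.11) were lower in *Ahr* HKO than in WT (edgeR adjusted p = 0.00176 and 0.00268). *Cd38* was higher there (0.91 ± 0.15, edgeR adjusted p = 0.00497), and *Naprt* was not called. Between the genotypes on ethanol 0 of the 15 were called, against 1.06% of all genes.

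Of 9 transporters tested that carry tryptophan, kynurenine or other amino acids, 2 rose and 2 fell with ethanol in WT, against 8.72% of all genes called. *Slc16a10*, a carrier of aromatic amino acids, fell from 97.6 ± 5.56 to 60.1 ± 0.971 CPM (log2 FC -0.70 ± 0.09, edgeR adjusted p = 0.00561). *Slc3a2*, the heavy chain of the large neutral amino acid exchangers, rose from 28.5 ± 4.21 to 73.3 ± 25.2 CPM (1.36 ± 0.27, edgeR adjusted p = 0.0247). In *Ahr* HKO 1 transporter rose and 3 fell with ethanol, against 31.2% of all genes called, so the share of transporters called was not far from that of all genes. *Slc36a4*, a tryptophan and proline carrier, fell there from 4.60 ± 0.792 to 1.16 ± 0.135 CPM (-2.0 ± 0.21, edgeR adjusted p = 0.00196). On the control diet *Slc36a4* was higher in *Ahr* HKO than in WT (0.82 ± 0.20, edgeR adjusted p = 0.0195). Of 4 genes of vitamin B6, the cofactor of *Kynu* and of the aminotransferases, 1 was called for ethanol in *Ahr* HKO, against 31.2% of all genes. For genotype on the control diet 1 was called as well, against 29.7% of all genes, so neither count stood out. It was *Pdxk* (pyridoxal kinase) in both. *Pdxk* rose with ethanol in *Ahr* HKO (0.97 ± 0.17, edgeR adjusted p = 0.00783) and was lower in *Ahr* HKO on the control diet (-0.67 ± 0.17, edgeR adjusted p = 0.0233).

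A list for the serotonin, tryptamine and indole branch, which also held the tRNA synthetase gene *Wars*, had 8 of 12 genes tested. With ethanol 3 of them rose and none fell in WT, and 5 rose and 1 fell in *Ahr* HKO, against 8.72% of all genes called in WT and 31.2% in *Ahr* HKO. *Maoa*, a monoamine oxidase, rose in WT from 5.97 ± 0.650 to 12.2 ± 0.753 CPM (log2 FC 1.03 ± 0.13, edgeR adjusted p = 0.00591), and *Aox1*, an aldehyde oxidase, rose in both genotypes (1.18 ± 0.16 in WT, edgeR adjusted p = 0.00895, and 1.22 ± 0.11 in *Ahr* HKO, edgeR adjusted p = 0.00141). *Ddc*, the aromatic amino acid decarboxylase, had 10.7 ± 4.03 CPM in *Ahr* HKO-con and 51.8 ± 17.1 CPM in *Ahr* HKO-EtOH (2.28 ± 0.35, edgeR adjusted p = 0.00496). *Wars*, the tryptophanyl-tRNA synthetase, went the other way, with 51.1 ± 11.5 CPM in *Ahr* HKO-con and 23.7 ± 4.65 CPM in *Ahr* HKO-EtOH (-1.11 ± 0.20, edgeR adjusted p = 0.00817). Against WT on the control diet, *Ddc* was lower in *Ahr* HKO (-1.51 ± 0.29, edgeR adjusted p = 0.00937) and *Wars* was higher (1.41 ± 0.16, edgeR adjusted p = 0.00167). Neither was called between the genotypes on ethanol.

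For enzymes of other aromatic and amino acid catabolism, 25 were tested and 13 rose with ethanol in *Ahr* HKO, while none fell, against 15% of all genes called as higher. In WT 1 rose and 2 fell, against 8.72% of all genes called. On the control diet 7 were lower and 3 higher in *Ahr* HKO than in WT, against 29.7% of all genes called and 14.4% called as lower. The interaction was positive and called for 14, against 22.3% of all genes called and 11.2% called as positive. *Tat*, the tyrosine aminotransferase, was the one that rose in WT, from 474 ± 114 to 1116 ± 307 CPM (log2 FC 1.24 ± 0.26, edgeR adjusted p = 0.0313), and *Ivd*, of leucine breakdown, fell from 201 ± 29.2 to 103 ± 16.0 CPM (-0.97 ± 0.16, edgeR adjusted p = 0.0144). *Ftcd*, *Hal* and *Amdhd1*, of histidine breakdown, and *Prodh*, proline dehydrogenase, rose with ethanol in *Ahr* HKO by 1.03 ± 0.11 to 1.49 ± 0.19 (edgeR adjusted p from 0.00215 to 0.00381).

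The genes closest in pattern to the 3 most variable enzymes were found by the root mean square difference of centred log2 CPM over the 12 livers, among 7515 genes with a mean of at least 10 CPM. For *Aadat* these were *Ces3a*, *Wipi1* and *Aox3*, with differences of 0.26 to 0.29. *Ces3a* had means of 2165, 794, 1240 and 1618 CPM in WT-con, WT-EtOH, *Ahr* HKO-con and *Ahr* HKO-EtOH, which is the group order of *Aadat*. For *Afmid* they were *Hal*, *Isoc2b* and *Gls2* (0.29 to 0.30), and for *Acmsd* they were *Tmem131*, *Tcaim* and *Zfp707* (0.26 for each). *Hal*, of histidine breakdown, had means of 256, 280, 133 and 318 CPM in the same order of groups, with its lowest and highest means in the groups where *Afmid* had its own. The likeness is a description of these 12 livers, which share their groups and libraries.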

How the data were processed

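Poly-A RNA of 12 mouse livers was sequenced from both ends as stranded libraries, 3 livers in each of 4 groups, and groups were taken from the sample labels. The authors deposited read counts per gene without normalization, FPKM (scaled to gene length and library size) and TPM, which served only to check that sums per liver lay between 924962 and 987569. The submitters' processing notes name FastQC 0.11.7, Trimmomatic 0.38, HISAT2 2.1.0, Bowtie2 2.3.4.1, StringTie 1.3.4d and the build mm10, with no roles, and the strand setting of counting is not given in the sources used here.

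Counts were scaled by TMM factors (0.925 to 1.16) and tested with the quasi-likelihood method of edgeR 4.0.16 in R 4.3.3 over the 14038 genes kept by filterByExpr. A comparison of 2 groups used only their 6 livers, and the interaction used all 12. Benjamini-Hochberg adjustment ran over all tested genes, with calls under 0.05. Values are CPM with the TMM factors, and errors are SD (n = 3) for levels. For log2 FC the SE was derived, as the absolute log2 FC divided by the square root of the quasi-likelihood F statistic. Alternatives were DESeq2 1.42.0, limma 3.58.1 on log2(FPKM + 1), other scaling and filters, 1 fit of all livers, a block for the replicate number, other thresholds and each liver left out. FPKM ratios without each liver were added after seeing the data. The fits were also run on simulated counts with the same relative spread for every gene. In these livers the SD was 1.63% of the mean for Ido2 in WT-con and 58.9% for Tdo2 in Ahr HKO-con. No conclusion about these data is therefore drawn from that run.

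No 2 of the 66 pairs of libraries held identical counts, and replicates differed by far more than sampling noise. With no molecular identifiers, the limit set by 3 counts (0.0404 to 0.0648 CPM) covers counting error only. The correlation of same-numbered livers lay between -0.09 and 0.18 over 18 pairs, so the numbers were not taken to pair the livers. Positions came from RefSeq on GRCm38, the RefSeq promoter table was of GRCm38.p6, and figures were drawn with matplotlib 3.10.9. The enzymes and the lists were chosen with earlier results of these data known. Genes named were the 10 enzymes, from each list at most 4 of the genes with the smallest p in each comparison, Ido1, Kyat1, Got2, Aldh8a1, Ahr, and the 3 genes closest in pattern to the 3 most variable enzymes. Cyp1a2 and Tk1 were added after their values were seen.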

Additional observations from a re-analysis of the deposited data

Results flagged for a closer look

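The effect of ethanol differed between the genotypes, by the interaction term of edgeR over all 12 livers, for 6 of the 10 enzymes. Of all genes 22.3% were called and 11.2% were called as positive. Of the 10 other tryptophan and kynurenine enzymes tested, 2 passed, Aldh8a1 and Gcdh. The values are the log2 FC of ethanol in Ahr HKO minus that in WT, and adjusted p values are over 14038 genes. The difference was 2.04 for Aadat, the kynurenine aminotransferase (edgeR adjusted p = 0.000322), with a log2 FC of -1.64 in WT and 0.40 in Ahr HKO. Afmid, which releases kynurenine, followed with 1.55 (edgeR adjusted p = 0.0289), a call kept in 7 of 12 fits without 1 liver. Ido2, a ring-opening dioxygenase, differed by 1.36 (edgeR adjusted p = 0.00420). Acmsd, the decarboxylase that competes with quinolinate formation, differed by 1.27 (edgeR adjusted p = 0.0119). Kynu differed by 0.99 (edgeR adjusted p = 0.00404) and Haao by 0.86 (edgeR adjusted p = 0.0122). Outside the 10, Gcdh differed by 0.72 (edgeR adjusted p = 0.0131) and Aldh8a1 by 0.69 (edgeR adjusted p = 0.0186). In all of these genes the log2 FC of ethanol in Ahr HKO was thus above that in WT, which does not compare their levels. On the control diet Aadat, Afmid, Ido2, Kynu and Aldh8a1 were called as lower in Ahr HKO than in WT (log2 FC from -1.12 to -0.77). Haao, Acmsd and Gcdh were not called there. Markers of other cells passed with the opposite sign, 4 of 6 of Kupffer cells (Marco at -4.62, Adgre1 at -2.33, Timd4 at -2.24 and Cd5l at -1.88), 2 of 6 of leukocytes (S100a8 at -3.01 and Ptprc at -1.52), Epcam of cholangiocytes at -2.36 and Pecam1 of endothelium at -0.93, and their part in the enzyme values was not tested. With 3 livers per group, single livers were not tested as outliers.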

How the results depend on the processing

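Counts of calls moved most where few genes passed. For ethanol in WT, 2 enzymes and 1224 of all genes were called, and the counts were 5 and 2335 with DESeq2, 4 and 1537 with all livers in a single fit, 1 and 2037 with limma on log2(FPKM + 1), 5 and 1325 with limma after quantile normalization, and 4 and 1976 at the study's threshold. For the genotypes on ethanol, 1 enzyme and 149 genes were called, and the counts were 4 and 1511 with DESeq2, 2 and 575 in a single fit, 501 genes with limma on log2(FPKM + 1) and 872 genes at the study's threshold. Leaving out 1 liver gave 1 to 3 enzymes and 360 to 1011 genes for ethanol in WT, 2 to 5 and 2588 to 3795 for ethanol in Ahr HKO, 3 to 5 and 2630 to 3737 for genotype on the control diet, and 0 and 10 to 193 for the genotypes on ethanol. Counts of the interaction stayed within 1.5 times (5 to 7 enzymes, 2267 to 3084 genes).

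The replicate number as a block gave 1 enzyme and 539 genes for ethanol in WT, 3 and 2970 for ethanol in Ahr HKO, 4 and 2968 for genotype on the control diet, 1 and 247 on ethanol, and 6 and 2745 for the interaction. Acmsd for ethanol in WT, Kyat3 for ethanol in Ahr HKO and Qprt for genotype on the control diet were not called with the block.

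Limma on log2(FPKM + 1) without quantile normalization also moved the split of calls. It gave 1631 higher and 406 lower genes for ethanol in WT (edgeR 595 and 629), 78 and 423 for the genotypes on ethanol (edgeR 96 and 53, DESeq2 714 and 797) and 810 and 2712 for the interaction (edgeR 1576 and 1561), with a median over all genes of -0.13 for the genotypes on ethanol and -0.14 for the interaction. The cause was not tested.

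Log2 FC that changed sign all belonged to enzymes not called in that comparison. With limma on log2(FPKM + 1) these were Afmid for ethanol in WT (0.031), Qprt for ethanol in Ahr HKO (-0.024, and -0.17 after quantile normalization), the genotypes on ethanol for Kyat3 (-0.14, and -0.038 after quantile normalization), Qprt (-0.055), Kynu (-0.13) and Kmo (-0.026), and the interaction of Kmo (-0.23, and -0.18 after quantile normalization). The interaction of Kmo was -0.00473 with DESeq2, -0.000508 with no filter and -0.00714 with at least 10 counts in every library. Leaving out 1 liver gave -0.54 to 0.22 for Afmid with ethanol in WT, -0.79 to 0.10 for Tdo2 by genotype on the control diet, -0.038 to 0.14 for Kyat3 and -0.043 to 0.19 for Kynu by genotype on ethanol, and -0.072 to 0.091 for Kmo and -0.45 to 0.040 for Kyat3 in the interaction. The SD between livers was more than 2 times the SD of counting error in 38 of 40 sets of 1 enzyme in 1 group. The others were Ido2 in WT-con (1.63% against 1.46%) and Acmsd in WT-EtOH (6.51% against 4.71%).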
